A study of Mus musculus with 14 samples.

Results

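The genes described are 10 fatty acid elongases and desaturases expressed in mouse liver: Elovl1, Elovl2, Elovl3, Elovl5 and Elovl6, Fads1, Fads2 and Fads3, and Scd1 and Scd2. They are grouped by gene family. The RefSeq accession of each probe was matched to its symbol, which gave 11 probes for the 10 genes (Elovl1 had 2 and every other member had 1), of 39429 probes and 19751 named genes on the array. The member with 2 probes was read on the brighter of them.

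Liver RNA came from CD1 mice, an outbred strain, of both sexes killed when 3, 4 or 8 wk old, from about weaning to young adulthood. The 6 groups were male mice (M3, M4 and M8) and female mice (F3, F4 and F8), and the number gives the age in wk. The RNA of each group was combined into 2 pools, of 5 mice each at 3 wk and of 6 mice each at 4 and 8 wk, so the spread between single mice was averaged out before it was measured. Pairs of groups were hybridized together on 14 two-colour Agilent arrays in 7 comparisons, with 2 arrays per comparison that used separate pools and opposite dyes. Male was set against female at each age (M3/F3, M4/F4, M8/F8), and adult against younger mice of the same sex (F8/F3 and F8/F4 in females, M8/M3 and M8/M4 in males).

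Fatty acids are lengthened in the endoplasmic reticulum by a cycle of condensation, reduction, dehydration and a further reduction, and the ELOVL proteins catalyse the condensation that sets which chain is lengthened. Double bonds are placed by front-end desaturases (FADS proteins), which act on polyunsaturated chains, and by stearoyl-CoA desaturases (SCD proteins), which make oleate and palmitoleate from saturated chains. In liver Elovl6 and the SCD proteins act on products of fatty acid synthase, the FADS1 and FADS2 desaturases with Elovl2 and Elovl5 act on polyunsaturated chains from the diet, and several members of the family are known targets of SREBP-1c, an insulin-responsive transcription factor. Liver is made mostly of hepatocytes, but whole tissue was used, so fewer cells of a type and less RNA per cell cannot be told apart.

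The 250 bases before the annotated start of 3 members are shown because they hold the upstream sequence of Fads2, which fell with age in males, and of Elovl5 and Elovl6, whose group means shared an order, although the pools of most neighbouring groups in it overlapped. Sequences are from RefSeq on build GRCm38.p6, written in the direction of transcription, and capitals mark an E-box (CACGTG) or an NF-Y box (CCAAT on either strand).

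Fads2, chr19:10101504-10101753, minus strand: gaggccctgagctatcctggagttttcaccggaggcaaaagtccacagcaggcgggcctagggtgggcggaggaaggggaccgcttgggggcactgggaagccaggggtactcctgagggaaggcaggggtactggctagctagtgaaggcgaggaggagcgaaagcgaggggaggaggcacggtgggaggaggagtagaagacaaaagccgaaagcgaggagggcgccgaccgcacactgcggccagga

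Elovl5, chr9:77917115-77917364, plus strand: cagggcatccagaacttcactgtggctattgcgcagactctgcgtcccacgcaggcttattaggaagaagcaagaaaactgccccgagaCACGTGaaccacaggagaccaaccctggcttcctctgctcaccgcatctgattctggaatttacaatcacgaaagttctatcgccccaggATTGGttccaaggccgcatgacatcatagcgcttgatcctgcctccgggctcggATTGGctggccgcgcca

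Elovl6, chr3:129532136-129532385, plus strand: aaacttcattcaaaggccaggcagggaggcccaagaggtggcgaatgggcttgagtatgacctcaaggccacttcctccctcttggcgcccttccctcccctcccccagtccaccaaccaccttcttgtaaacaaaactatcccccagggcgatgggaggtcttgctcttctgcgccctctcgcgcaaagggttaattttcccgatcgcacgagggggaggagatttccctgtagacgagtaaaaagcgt

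A promoter entry was matched for 6 of the 10 members, and Elovl3, Fads1, Scd1 and Scd2 are named only. Elovl5 held an E-box at positions -161 to -156 from its start, a motif present in 7.15% of 32851 promoters of the same length. It also held 2 NF-Y boxes on the opposite strand, and an NF-Y box was found upstream of Elovl1 and of Fads3 as well, against 37.4% of all promoters. Elovl6 and Elovl1 each held a nuclear receptor half-site (AGGTCA, 16.3% of promoters), and Fads2 held none of the motifs searched. Elovl1 and Elovl2 had 2 annotated starts each, and the NF-Y box and half-site of Elovl1 lay at different starts. The percentages count each start separately. Letters that match a sterol response element (TCACNCCAC, 1.24%), the direct repeat DR1 of the half-site (0.0396%) or a STAT5 site (TTCNNNGAA, 8.3%) occurred in none of the 6 members' windows. Both strands were searched, over 300 bases that run 50 bases past the start, and the half-site lies within the direct repeat. A match describes letters and is not evidence of binding.

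All 10 members gave signals well above background in every channel of the 14 arrays, and no spot was saturated. Over all spots between 55.2% and 77.2% were well above background. Ratios are given on the log2 scale, as the first-named group over the second, for replicate 1 and then replicate 2. A member was called higher or lower when its adjusted p (limma, Benjamini-Hochberg over all probes and the 7 comparisons) was under 0.05 and its fold change exceeded 1.5. The sex genes fitted the labels: Ddx3y, Uty and Eif2s3y were higher and Xist was lower in male than in female liver at each age.

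Over the 7 comparisons 7 calls were made, and 5 of them were for age in males. Of the 10 members, 4 were called in M8/M3, where Elovl3 rose and Elovl1, Fads2 and Scd2 fell, against 16.8% of all probes tested in that comparison. In females 1 member, Scd2, fell in F8/F3, where 10.8% of probes were called. Between 4 and 8 wk 1 member, Elovl3, rose in males (background 10.1%) and 0 were called in females (background 5.41%, with 2 at an unadjusted p under 0.05). Between the sexes 1 member, Elovl3, was higher in males at 8 wk (background 6.31%). At 3 wk and at 4 wk 0 members were called between the sexes (background 0.464% and 1.44%), with 3 at an unadjusted p under 0.05 at either age. With 10 genes a count of 1 stands near these backgrounds. The median log2 ratio of the members was -0.49 in M8/M3 and -0.31 in M8/M4, beside 0.01 and 0.02 over all genes, while the female age comparisons had -0.14 (F8/F3) and -0.08 (F8/F4).

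**Figure D1:**
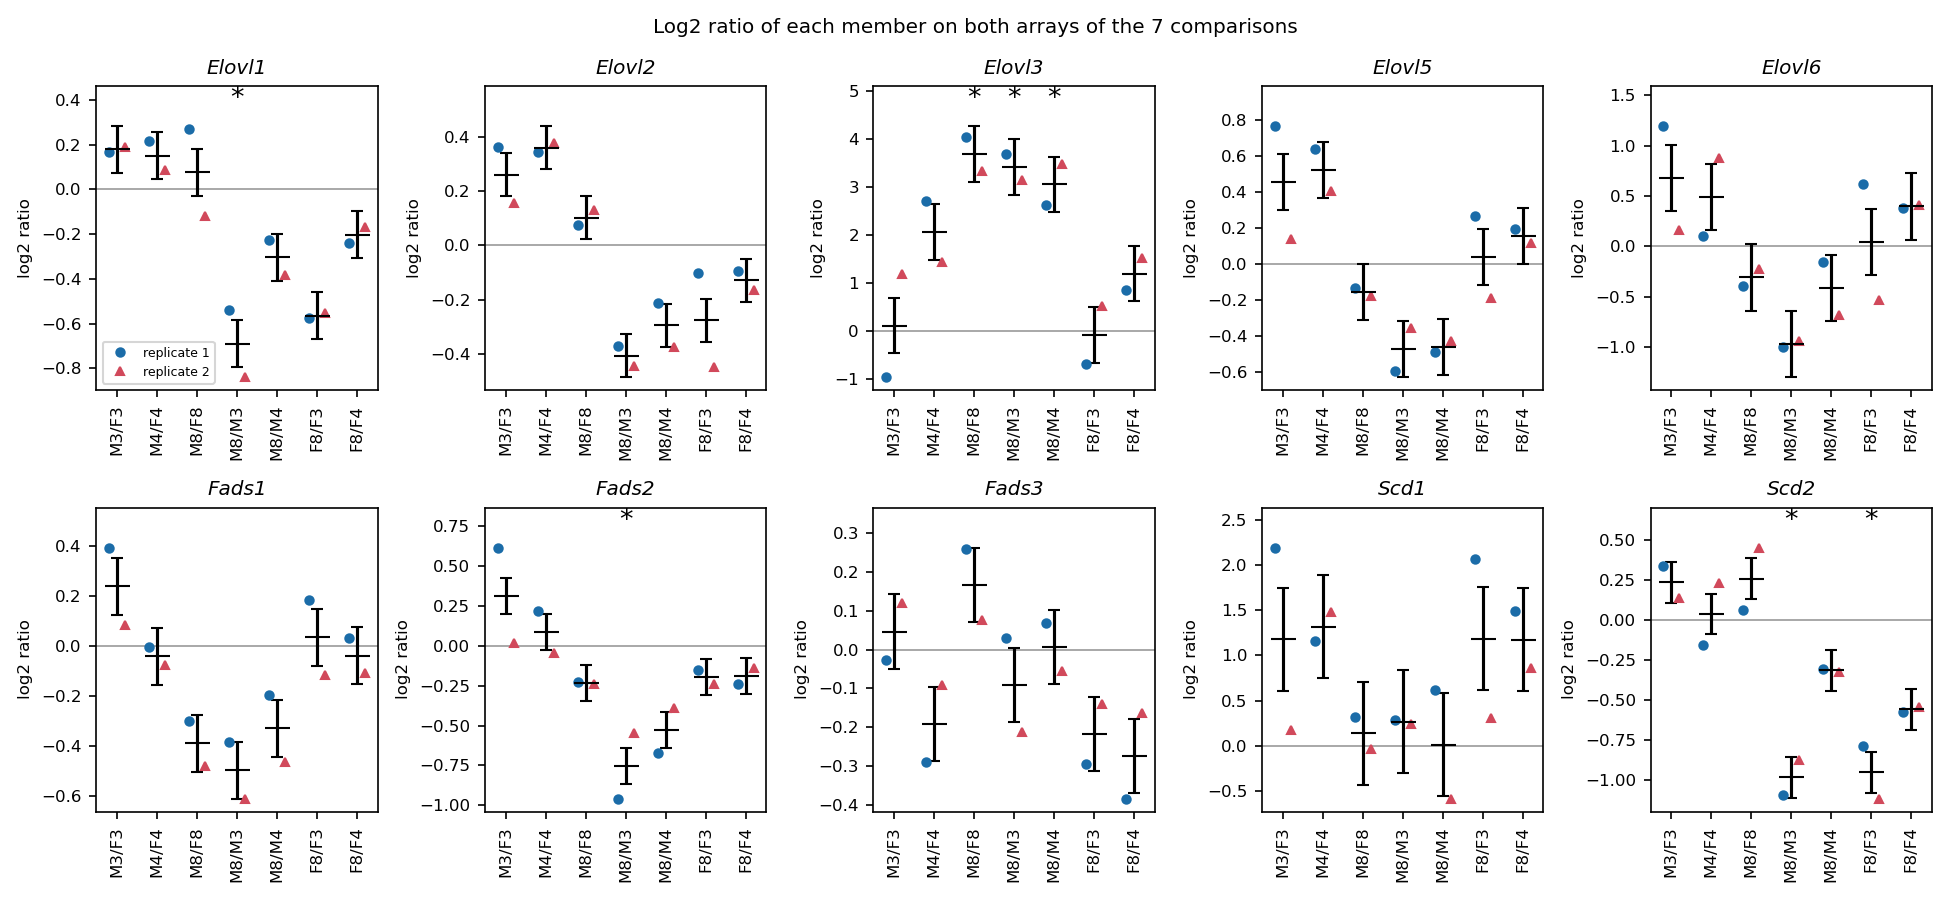
Log2 ratio (vertical axis, scaled separately in each panel) of the 10 members in the 7 comparisons (horizontal axis), with circles for replicate 1, triangles for replicate 2, black bars for the fitted value ± SE, and an asterisk where a member was called. Elovl3 stood at 3.06 to 3.69 in the 3 comparisons that set M8 against another group, while Scd1 had replicates that lay far apart in M3/F3 (2.19 and 0.17).

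Levels in the 6 groups were also read from the ratios, separately for the 7 arrays of replicate 1 and the 7 arrays of replicate 2, and centred on the mean of the groups. This takes arrays with the same replicate number as having shared their pools, which the labels do not state. Comparisons that include M8 or F8 share those groups' pools, so their values are set side by side and were not counted as separate evidence.

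Among the elongases of saturated and monounsaturated chains, Elovl3 had the widest range. It makes very long chain fatty acids and is known as a male-biased gene of mouse liver. Its M8/F8 ratio was 4.04 and 3.34. With age in males it was 3.68 and 3.15 for M8/M3, and 2.63 and 3.48 for M8/M4. Both arrays of each comparison put M8 far above the other group. The fitted difference was 12.9-fold in M8/F8 (log2 3.69, SE 0.58, adjusted p = 0.00712), near to that in M8/M3 (log2 3.42, SE 0.58, adjusted p = 0.00962) and 8.32-fold in M8/M4 (log2 3.06, SE 0.58, adjusted p = 0.0147). With only 1 array left for a comparison the direction held but the call could be lost: the adjusted p was 0.0659 without M8/F8 replicate 1, 0.10 without M8/M3 replicate 1, and 0.0717 or 0.131 without M8/M4 replicate 1 or 2.

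In younger and female liver Elovl3 was low and uneven. In M3/F3 its ratio was -0.96 and 1.20, with no common direction. In M4/F4 it was 2.70 and 1.44, 4.2-fold higher in males as fitted, but the adjusted p was 0.0599. That difference passed without either M3/F3 array (adjusted p = 0.0101 in each case), which disagree and enter the shared estimate of the gene's spread. It did not pass with the replicate block (adjusted p = 0.0791), with shared pools in the covariance (0.0851) or with p-values adjusted within each comparison (0.182), and without M4/F4 replicate 1 the adjusted p was 0.382. In females the F8/F3 ratio was -0.68 and 0.53, with 0.86 and 1.53 for F8/F4 (fitted 1.20, adjusted p = 0.250). The processed signal of the Elovl3 probe had a median of 148 in F4, 370 in F3, 453 in F8, 730 in M3, 998 in M4 and 10023 in M8. The lowest M8 channel, 8011, lay above the highest channel of any other group, 1857 in M4.

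The order of Elovl3 levels was F4, F8, F3, M3, M4 and M8 from low to high, over a 31.8-fold range. F4 lay below the pools of F8, and M8 above those of M4, while F8, F3, M3 and M4 overlapped with their neighbours. The age change was larger in males than in females by 3.49 on the log2 scale from 3 to 8 wk (SE 0.82), and the test of that difference gave an adjusted p of 0.0697. It was called without either M3/F3 array (adjusted p = 0.0185). From 4 to 8 wk the difference was 1.86 (SE 0.82, adjusted p = 0.399). No member was called in the sex by age test from 3 to 8 wk (background 3.22%, 3 members at an unadjusted p under 0.05) or from 4 to 8 wk (background 1.34%, 1 member).

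Adipocyte RNA was checked beside Elovl3, which is also expressed in fat. Of 5 adipocyte markers (Adipoq, Plin1, Cfd, Lep and Cidec) only 3 in M8/F8, 2 in M8/M3 and 3 in M8/M4 had the signal needed for a call. None was called, and 2 of them, Cfd and Cidec, had an unadjusted p under 0.05 in each comparison. The summed signal of the 5 markers ran from 196 to 1617 in M8 channels, from 113 to 177 in F8 and from 54 to 322 in F4. Lep was well above background in 0 of 28 channels. Cfd was 3.20 and 6.25 and Cidec 0.74 and 2.93 in M8/F8, larger in replicate 2. In M8/F8 Elovl3 was 4.04 and 3.34, and its relative level was 3.08 in the first M8 pool and 3.17 in the second. The part of fat RNA in the Elovl3 signal was not tested.

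**Figure D2:**
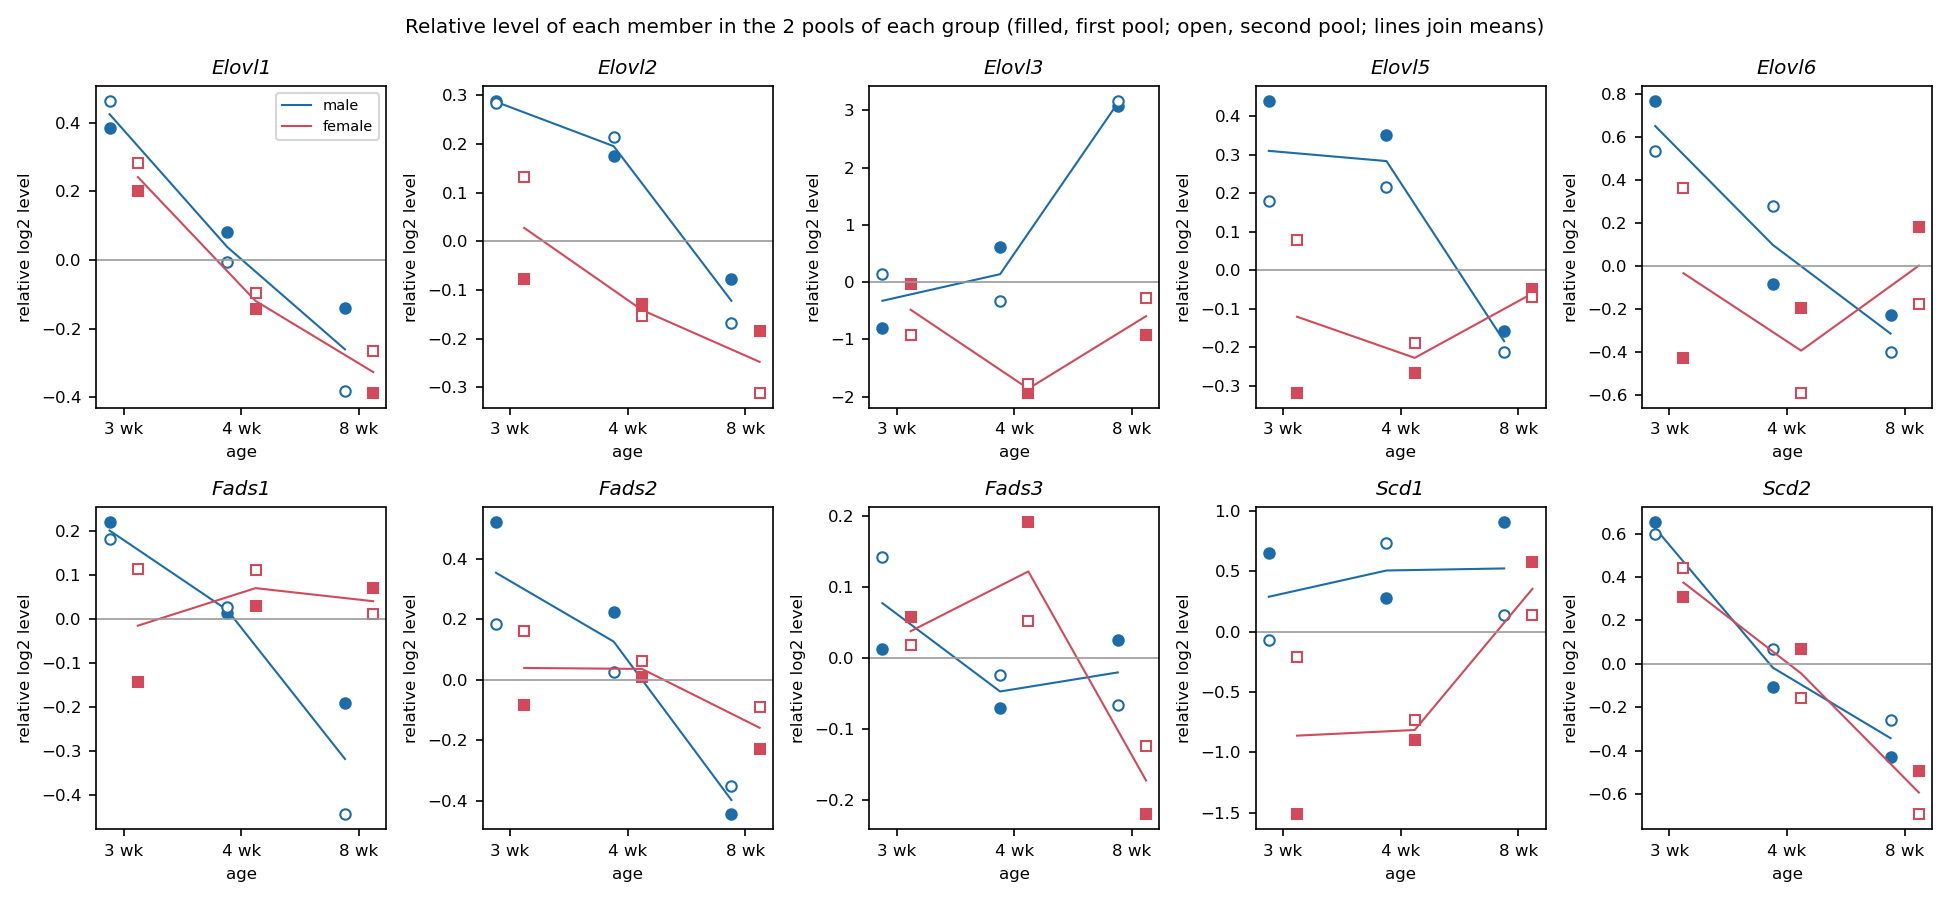
Relative log2 level (vertical axis, scaled separately in each panel) of the 10 members at 3, 4 and 8 wk (horizontal axis) in male (blue circles) and female (red squares) liver, with filled marks for the first pool, open marks for the second, and lines through the means. Scd2 fell from 3 to 8 wk in both sexes, Elovl1 had its lowest mean at 8 wk in both, and Elovl3 rose to 3.08 and 3.17 in M8.

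Elovl1, which lengthens saturated and monounsaturated very long chains for sphingolipids, fell with age in males. Its ratio was -0.54 and -0.84 in M8/M3, a fitted 1.61-fold decrease (log2 -0.69, SE 0.10, adjusted p = 0.00620). In F8/F3 it was -0.57 and -0.55, a 1.48-fold decrease with an adjusted p of 0.0134 that stayed just under the fold threshold. The difference between the sexes in this change was -0.13 (95% interval -0.47 to 0.22). The second Elovl1 probe gave -0.65 in M8/M3 (adjusted p = 0.0346) and -0.44 in F8/F3 (adjusted p = 0.125). Without M8/M3 replicate 2 the M8/M3 value was -0.50 and was not called (adjusted p = 0.0630). Levels ran F8, M8, F4, M4, F3 and M3 from low to high, so the youngest groups were highest in both sexes, and only M8 overlapped with its neighbours F8 and F4. Between the sexes Elovl1 differed by 0.08 to 0.18 at the 3 ages, and none of these passed the test.

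Elovl6, which lengthens palmitate to stearate, was -1.0 and -0.94 in M8/M3. The arrays lay close together, and the fitted decrease was 1.96-fold, but its SE of 0.33 came from disagreement in other comparisons and the adjusted p was 0.110. Without either M3/F3 array it was called (adjusted p = 0.0425 and 0.0424). In F8/F3 Elovl6 was 0.62 and -0.53, and in M3/F3 it was 1.19 and 0.16. Its highest level was in M3, whose pools did not overlap with those of M4, and the other 5 groups overlapped with their neighbours. The sex by age difference from 3 to 8 wk was -1.01 (95% interval -2.12 to 0.09, adjusted p = 0.322).

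Among the elongases of polyunsaturated chains, Elovl2 makes the precursors of docosahexaenoic acid and Elovl5 acts earlier in the same series. Elovl2 was 0.34 and 0.38 in M4/F4, 1.28-fold higher in males (adjusted p = 0.0265), and -0.37 and -0.45 in M8/M3, 1.33-fold lower at 8 wk (adjusted p = 0.0165). Both passed on adjusted p but lay under the fold threshold. The group means of Elovl2 ran down in order of age within each sex, and its whole range was 1.45-fold. Elovl5 was 0.76 and 0.14 in M3/F3 and 0.64 and 0.40 in M4/F4, higher in males on all 4 arrays, with adjusted p of 0.114 and 0.0740. In M8/F8 Elovl5 was -0.13 and -0.18. It was -0.59 and -0.35 in M8/M3 and -0.49 and -0.43 in M8/M4 (adjusted p = 0.10 and 0.111), against female changes of 0.04 (F8/F3) and 0.16 (F8/F4) as fitted. M3 and M4 lay above all other groups for Elovl5 and overlapped with each other. Without M3/F3 replicate 2 the M3/F3 ratios of Elovl5, Elovl6 and Scd1 were called higher in males, at 0.76, 1.40 and 2.49. Without M3/F3 replicate 1 they were 0.14, -0.05 and -0.13, so those calls rest on 1 array.

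Of the front-end desaturases, Fads2 carries out the first and rate-limiting desaturation of linoleic and linolenic acid, and it fell in males. Its ratio was -0.96 and -0.55 in M8/M3, a 1.69-fold decrease (log2 -0.75, SE 0.11, adjusted p = 0.00590), and -0.67 and -0.39 in M8/M4, a 1.44-fold decrease (adjusted p = 0.0228) under the fold threshold. In females the F8/F3 ratios were -0.15 and -0.24, and those of F8/F4 -0.24 and -0.14, all below 0 but smaller, with adjusted p of 0.345 and 0.362. The difference between the sexes from 3 to 8 wk was -0.56 (95% interval -0.93 to -0.18), with an adjusted p of 0.117. Without M8/M3 replicate 1 the M8/M3 value was -0.65 and was not called (adjusted p = 0.0682). M8 had the lowest level of Fads2 and did not overlap with F8. Above F8, the pools of F4, F3, M4 and M3 overlapped in turn.

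Fads1, which places the last double bond of arachidonic acid, had male age ratios of the same sign and smaller size as fitted, although not in replicate 2. It was -0.38 and -0.61 in M8/M3 (fitted -0.50, adjusted p = 0.0301, under the fold threshold), and -0.30 and -0.48 in M8/F8 (fitted -0.39, adjusted p = 0.0698). Its female ratios stood close to 0, at 0.19 and -0.12 for F8/F3 and at 0.03 and -0.11 for F8/F4. M8 was the lowest group and its pools lay below those of F3, while F3, M4, F8 and F4 overlapped. Fads3, a relative that acts on sphingoid bases, had fitted ratios between -0.27 and 0.17 in all 7 comparisons, and its whole range over groups was 1.23-fold.

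Of the stearoyl-CoA desaturases, Scd2 is known as the form used in brain and in early life, and it fell with age in both sexes. Its ratio was -1.09 and -0.87 in M8/M3, a 1.98-fold decrease (log2 -0.98, SE 0.13, adjusted p = 0.00345), and -0.79 and -1.12 in F8/F3, a 1.93-fold decrease (log2 -0.95, adjusted p = 0.00391). The changes differed between the sexes by -0.03 (95% interval -0.46 to 0.40). From 4 to 8 wk Scd2 was -0.57 and -0.54 in females (adjusted p = 0.0295, under the fold threshold) and -0.31 and -0.32 in males (adjusted p = 0.170). Between M3 and M4, read through M8, it was -0.67 (SE 0.18, adjusted p = 0.178), and between F3 and F4, read through F8, -0.39 (adjusted p = 0.533). The M4/M3 difference of Scd2 was called when the shared pools entered the covariance (-0.67, adjusted p = 0.0422) and with 6 group means (-0.64, adjusted p = 0.0239). As fitted across all comparisons, no member was called in either indirect contrast (background 0.228% and 0.0897%), with 2 and 1 at an unadjusted p under 0.05. Both Scd2 calls held when any 1 of the 14 arrays was left out.

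Scd1, the main stearoyl-CoA desaturase of adult liver, followed another course and was called in no comparison as fitted. It was 1.16 and 1.48 in M4/F4, 2.50-fold higher in males as fitted (adjusted p = 0.198), and 1.49 and 0.86 in F8/F4, 2.26-fold higher at 8 wk (adjusted p = 0.254). In M3/F3 it was 2.19 and 0.17 and in F8/F3 2.07 and 0.31. At 8 wk the sexes lay closer, with M8/F8 ratios of 0.32 and -0.04, and M8/M3 ratios were 0.28 and 0.25. The M8/M4 replicates, 0.61 and -0.59, pointed in opposite directions. The SE of 0.57 left 95% intervals of -1.21 to 1.5 in M8/F8 and -1.09 to 1.62 in M8/M3, so changes of over 1.5-fold either way could not be told from none. F3 and F4 lay below all 4 other groups, whose pools overlapped.

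**Figure D3:**
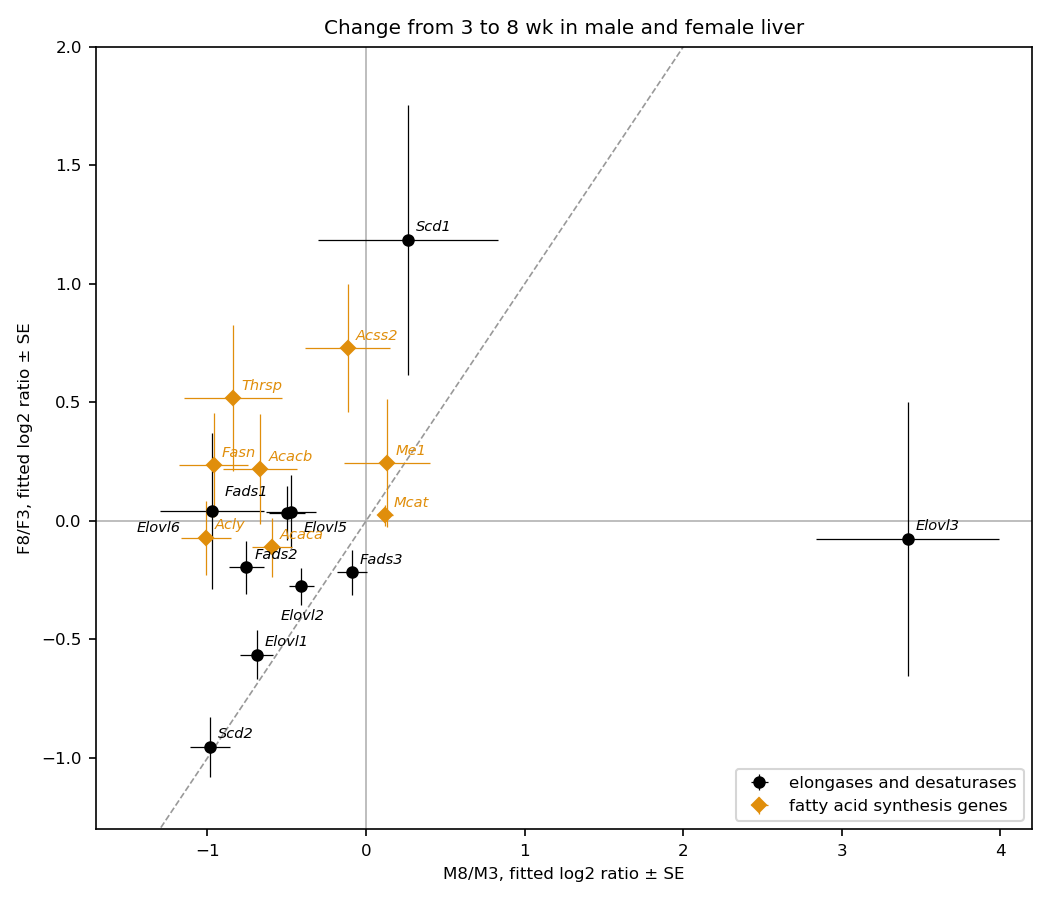
Fitted log2 ratio ± SE in M8/M3 (horizontal axis) and in F8/F3 (vertical axis) for the 10 members (black circles) and for 8 fatty acid synthesis genes (orange diamonds), with a dashed line where the changes are equal. Scd2 and Elovl1 lie near the line, Elovl6, Fads1, Fads2 and Elovl5 lie to the left of it with female values between -0.20 and 0.04, and Elovl3 lies at 3.42 in males and -0.08 in females.

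For Scd1 and Elovl6 the replicates of M3/F3 and of F8/F3 lay far apart. Replicate 1 of both comparisons holds the first F3 pool if same-numbered arrays share pools, as assumed here. Replicates also disagreed where no F3 pool was used, at 0.61 and -0.59 for Scd1 in M8/M4 and at 0.10 and 0.88 for Elovl6 in M4/F4. The relative level of Scd1 was -1.52 in the first F3 pool and -0.21 in the second, a gap of 1.31. The gap was 0.79 for Elovl6 and 0.40 for Elovl5, and the second pool was higher for 8 of the 10 members. All 8 fatty acid synthesis genes measured were also higher in the second F3 pool, by 0.45 for Fasn, 0.59 for Me1 and 0.60 for Acss2. Elovl3 ran the other way in F3, by -0.89. F3 was not alone in this. Every synthesis gene was lower in the second F8 pool, with gaps of -0.71 for Thrsp and -0.53 for Acss2. Scd1 had gaps of -0.77 in M8 and -0.72 in M3. Levels were centred within each replicate set, so the gaps of a gene balance out over the groups. When both arrays of the first F3 pool were left out, the M3/F3 ratio went from 1.18 to -0.01 for Scd1, from 0.68 to 0.03 for Elovl6 and from 0.45 to 0.19 for Elovl5. That fit left 1 array in M3/F3, so these values follow the remaining replicate and cannot tell the pool from the array. In the same fit Elovl6 was called lower in M8/M3 (-0.97, adjusted p = 0.0351) and Elovl3 higher in M4/F4 (2.07, adjusted p = 0.0251). Both ratios were as in the fit to all arrays, while the shared estimate of spread lost arrays that disagreed with their replicates.

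**Figure D4:**
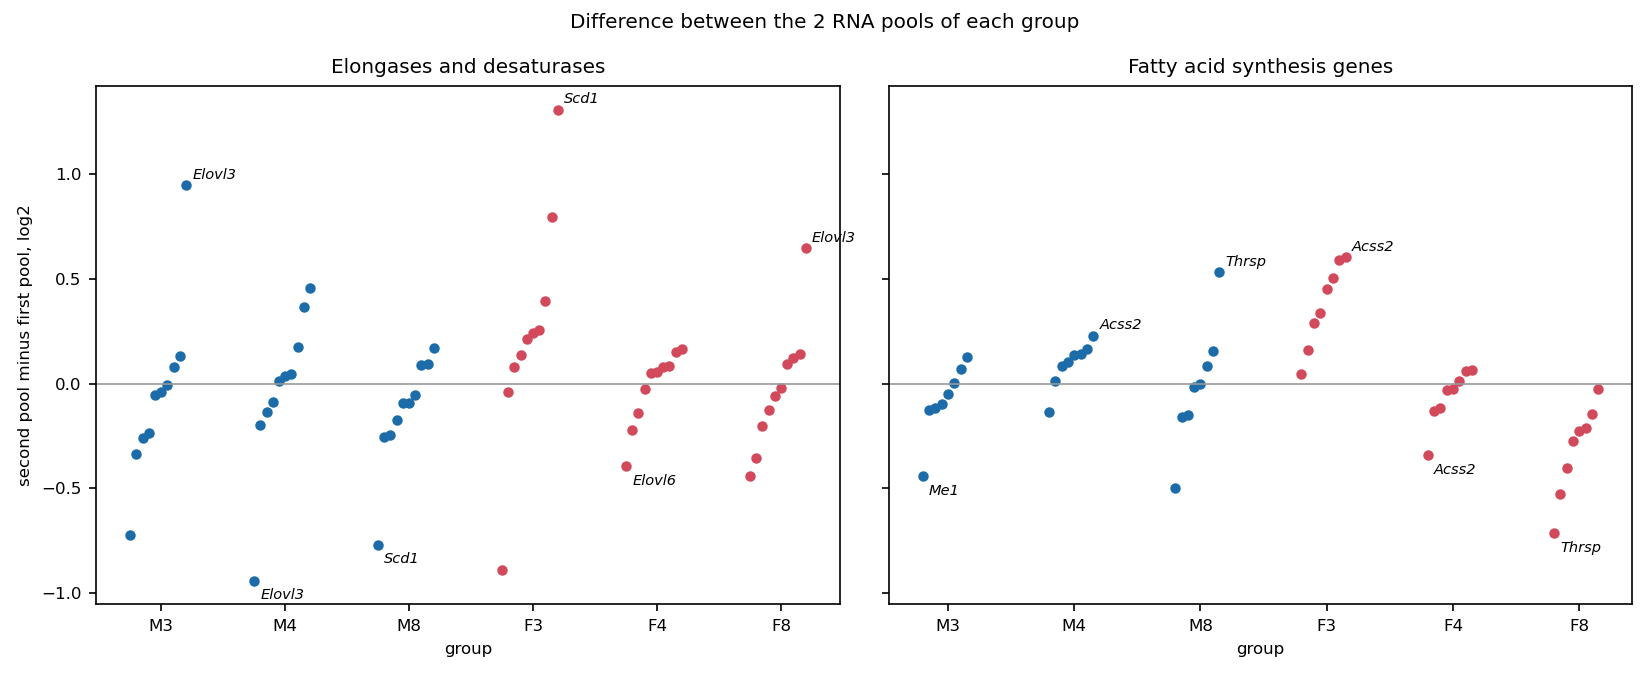
Second pool minus first pool on the log2 scale (vertical axis) in each of the 6 groups (horizontal axis) for the 10 members (left) and 8 fatty acid synthesis genes (right), with 1 point per gene, blue for male and red for female groups, and the gene with the widest gap named. The F3 pools are separated by 1.31 for Scd1 and by 0.60 for Acss2, and the F8 pools by -0.71 for Thrsp.

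Genes that act with the members were read from lists drawn up by function, with earlier results of these data known. Of 8 fatty acid synthesis genes, 3 fell in M8/M3, with a list median of -0.63 beside 0.01 over all genes. Acly, which makes cytosolic acetyl-CoA, fell 2.01-fold (-1.08 and -0.94, adjusted p = 0.00702), Fasn, which builds palmitate, fell 1.95-fold (-0.78 and -1.14, adjusted p = 0.0294), and Acaca, which makes malonyl-CoA, fell 1.51-fold. In F8/F3 0 of the 8 were called (1 at an unadjusted p under 0.05) and the median was 0.23. From 4 to 8 wk none was called in either sex, with a median of 0.09 in M8/M4 (0 at an unadjusted p under 0.05) and of 0.57 in F8/F4 (3 at an unadjusted p under 0.05). Acly was also higher in males at 3 wk (0.87 and 0.44, adjusted p = 0.0357). Of 9 regulators, Srebf1, which encodes SREBP-1, fell 1.76-fold in M8/M3 (-0.71 and -0.92, adjusted p = 0.00584), and in F8/F3 it was -0.46 as fitted (adjusted p = 0.0479, under the fold threshold). Insig2, which retains SREBP in the endoplasmic reticulum, was 1.51-fold higher in M8/F8.

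Few partner enzymes were called. Of 7 other enzymes of the elongation cycle, Hacd1, a dehydratase, was called, lower in M8/M3 by 1.61-fold, and the list median was -0.05. Of 4 electron donors of the desaturases (cytochromes b5 and their reductases) 0 were called in the 7 comparisons, although 13 of their 28 ratios had an unadjusted p under 0.05, none past the fold threshold with an adjusted p under 0.05. Among 5 further members of the families, Elovl7 fell in each of the 4 age comparisons, by 4.79-fold in M8/M3 (-2.70 and -1.82, adjusted p = 0.00237) and 3.07-fold in F8/F3. Among genes for peroxisomal chain shortening, Abcd2, a transporter of very long chain acyl-CoA, was 13.3-fold lower in M8/F8 (-3.30 and -4.16, adjusted p = 0.00105). Against M3 it was 11.2-fold lower in M8, the group in which Elovl3 was high. Of 6 acyl-CoA synthetases, Acsl3 and Acsl5 fell and Slc27a2 rose in M8/M3.

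Clock genes and markers of other cell types also moved with age. Of 9 clock genes high in the day to evening and 5 of the opposite phase, Dbp, Tef, Nr1d1 and Nr1d2 were higher and Cry1 was lower at 8 wk in all 4 age comparisons, with Dbp 6.74-fold higher in M8/M3 and 7.89-fold higher in F8/F3. Per2, of the same day list, was 2.0-fold lower in M8/M3. In M8/F8 Dbp was -1.65 and 0.47 and Per1 was 2.29-fold lower. Collagens Col1a1, Col1a2 and Col3a1, of 6 mesenchymal markers, and 4 of 6 erythroid markers fell in all 4 age comparisons. Another erythroid marker, Alas2, ran the other way in males, 2.59-fold higher in M8/M3 and 1.98-fold higher in M8/M4, and it was 3.70-fold higher in M8/F8. The summed mesenchymal signal ran from 59256 to 106639 in M3 and from 36997 to 50013 in M8, and the summed erythroid signal from 57194 to 119164 in M3 and from 50007 to 69725 in M8. Of 6 hepatocyte markers, Alb was lower and Serpina1a higher in M8/M3, and the list median was -0.03. Of the remaining marker lists, these were called in M8/M3, all lower: Adgre1 and Marco of 5 Kupffer cell markers, Lyve1 of 5 endothelial, Krt19 and Krt7 of 5 bile duct and Cd3g of 5 lymphocyte markers. Adgre1, Marco, Lyve1, Krt19 and Cd3g were also lower in M8/M4, and Marco, Lyve1 and the bile duct marker Sox9 were lower in F8/F3, where Scd2 was called. In M8/F8, where Elovl3 was called, 3 of 5 Kupffer cell markers were lower (Clec4f 1.51-fold, Adgre1 1.57-fold and Marco 2.07-fold), as was Cd3g (1.81-fold). The part of these shifts in the changes of Elovl1, Fads2, Scd2 and Elovl3 was not tested.

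For each member that was called, the genes with the most similar profile over the 14 arrays were named from 12849 genes, as a description in which the arrays share pools. Elovl3 was closest to Zswim8, Fbxo10 and Ttc39c (Pearson r of 0.98, 0.96 and 0.96), and Scd2 to Med7, Akap12 and She (0.99, 0.98 and 0.98). Elovl1 was closest to Orc6, Cstb and E2f8 (0.97 each), and Fads2 to Samm50, Coro1c and Acsl5 (0.97, 0.96 and 0.96).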

How the data were processed

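Liver RNA of male and female CD1 mice at 3, 4 and 8 wk was measured on 14 two-colour Agilent arrays read at 39429 probes. The authors deposited scanner output from Feature Extraction 10.7.1.1, in which background correction, dye normalization (linear and LOWESS) and the log10 ratio of red over green had been computed, with an error of each log10 ratio (a score in the deposited files, modelled by the software) and a processed intensity per channel; a deposited table of log10 ratios equalled these values. Groups, dyes and replicate numbers came from the labels. The methods' example of the dyes for M3/F3 replicate 1 runs the other way, and the sex genes fitted the labels.

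Each ratio was turned to the first-named group over the second and expressed as log2. Control spots and spots flagged as non-uniform (0 to 10 per array) were left out, and spots of a probe were averaged. One model was fitted over all 14 arrays with limma 3.58.1 in R 4.3.3, with a coefficient for each comparison and a dye term, and p-values were adjusted by Benjamini-Hochberg over all probes and the 7 comparisons together, or within each interaction or indirect contrast. The comparisons shared one estimate of each probe's spread. A call needed an adjusted p under 0.05, a ratio over 1.5 or under 0.667, and a signal well above background on both arrays of at least 1 of the groups. The authors' error model could not be recomputed. The script was tested on simulated data. P-values measure the spread between replicate arrays of separate pools, taken over the 7 comparisons. They treat the arrays as independent, although comparisons share groups. With 2 arrays per comparison precision is limited.

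Members and gene lists were chosen with earlier results of these data known. Named genes were the 10 members, whatever their values, listed genes a result turned on, and the 3 most similar genes of each called member. The lists were other family members, the elongation cycle, electron donors, regulators, fatty acid synthesis, peroxisomal chain shortening, acyl-CoA synthetases, 2 clock lists, and markers of hepatocytes, Kupffer cells, mesenchyme, endothelium, bile duct, erythroid cells, lymphocytes and adipocytes. Both arrays of a comparison were scanned on the same day but lay on different slides, so slide was tried as a block. Alternatives covered background correction, centring, the dye term, blocks, group means, shared pools, error weights, filters, the fold threshold, the adjustment, the choice of probe and leaving out each array. Leaving out both arrays of the first F3 pool was chosen after seeing the data.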

Additional observations from a re-analysis of the deposited data

How the results depend on the processing

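Counts of called members were recomputed under 13 alternatives that kept every comparison and with each of the 14 arrays left out in turn. No called member changed sign under any of them. The error-weighted averages changed both the weights and the test, since a call there needed an unadjusted p under 0.0001 from the deposited errors in place of an adjusted p under 0.05. The counts in M4/F4 rose from 0 to 1 with normexp and loess, with 6 group means, with dim probes left out and with both arrays of the first F3 pool left out (Elovl3 each time), with error-weighted averages (Scd1) and with no fold threshold (Elovl2). The sex by age count from 3 to 8 wk rose from 0 to 2 with normexp and loess (Elovl3 and Fads1) and with 6 group means (Elovl3 and Elovl6), and to 1 with error-weighted averages or with dim probes left out (Elovl3). The count from 4 to 8 wk rose to 1 with 6 group means (Elovl5), and M4/M3 read through M8 rose to 1 with 6 group means or with shared pools in the covariance (Scd2). With no fold threshold the count rose to 6 in M8/M3 (Elovl2 and Fads1 added), to 2 in M8/M4 (Fads2 added) and in F8/F3 (Elovl1 added), and it became 1 in F8/F4 (Scd2). Elovl6 was also called in M8/M3 with 6 group means (adjusted p = 0.0205) and with error-weighted averages (-0.97). Fads2 was not called in M8/M3 with error-weighted averages (-0.74, unadjusted p = 0.000301), nor Elovl3 in M4/F4 (1.90, unadjusted p = 0.00180), both on the p threshold of that setting. The cause was not tested, except that removing a threshold can only add calls.

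Leaving out 1 array gave counts of 0 to 3 in M3/F3, 0 to 1 in M4/F4, 0 to 1 in M8/F8, 2 to 5 in M8/M3 and 0 to 1 in M8/M4. For the female age comparisons the range was 1 to 1 (F8/F3) and 0 to 0 (F8/F4). It was 0 to 1 for the sex by age test from 3 to 8 wk, and 0 to 0 for that from 4 to 8 wk and for both indirect contrasts. A comparison that loses an array rests on 1, assumed to vary like the others. With the replicate block added, the counts were 0, 0, 1, 4, 1, 1 and 0 in the 7 comparisons and 0 in the other contrasts. Differences between replicates correlated between comparisons by -0.53 to 0.68, over 0.1 in 11 of 21 pairs. The 10 pairs of comparisons that share a group all had the sign that shared pools give, with sizes of 0.15 to 0.68, and the 11 others had sizes of 0.06 to 0.29. This is a hint from the data that same-numbered arrays share pools, which the pool levels assume. With shared pools modelled, 89.3% of the variance of a ratio lay between pools. Signal over background did not limit the members, since all were well above it in every channel.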
